A study of Mus musculus with 19 samples.

Results

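Rbm33 lies next to Shh on chromosome 5 of the mouse, on the side of En2, and its contacts were followed across capture Hi-C maps of the Shh locus. The Rbm33 viewpoint is the 11 bins of 10 kb from 28640001 to 28750000 (mm9 build), defined by position, of 280 bins in each map (27800001 to 30600000). Its partners are the other 269 bins. The 84 bins from 27800001 to 28640000 are called the lower side here, as they lead towards En2. The 93 bins from 28770001 to 29700000 are the Shh domain, and 2 bins (28750001 to 28770000) lie between it and the viewpoint. The order of genes was read from RefSeq's GRCm38.p6 table. There the protein-coding genes below Rbm33 are Cnpy1, En2, Insig1, Htr5a and Paxip1, and those above it are Shh, Rnf32, Lmbr1, Nom1, Mnx1, Ube3c and Dnajb6. Genes were not placed at bins, since coordinates of that build were not carried over to mm9.

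The maps come from 19 samples in 9 groups, each group deposited as 1 merged map. Wild type limb bud (3 samples) and wild type midbrain (2 samples) were taken at E10.5 from C57BL/6 embryos. The other 7 groups have 2 samples each and are of the G4 background. They are wild type ES cells, limb buds at E10.5 with the alleles deltaCTCF i4i5, deltaCTCF i4i5ZRS, delta-CTCF i4i5ZRSreg, deltaZRSreg or Lmbr1deltaprom/deltaprom, and midbrain at E10.5 with delta-CTCF i4i5ZRS. The first 3 alleles lack CTCF sites, ZRSreg is the name of a further deleted element, and the last allele is homozygous for loss of the Lmbr1 promoter. Per the series design the wild type samples are biological replicates and the mutant samples technical ones. However, 2 samples of wild type limb carry the same library number and may be runs of 1 library. For 1 ES cell sample the library name in the name of the merged map differs from that in the sample label. Strain and genotype cannot be told apart in a comparison of a mutant with wild type. The same holds for strain and cell type where ES cells are set against limb.

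Rbm33 encodes an RNA-binding protein. Shh encodes Sonic hedgehog, a secreted signal whose expression in the limb bud is driven from the ZRS, an enhancer within an intron of Lmbr1 at the far end of a gene desert. Chromatin of this kind is folded into domains whose ends often hold sites for CTCF, a DNA-binding protein at which cohesin, the ring that extrudes loops, tends to stop. A gene just outside a domain is usually held apart from the sequences inside it, although the ends of domains can meet each other.

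The promoters of Rbm33 and of Lmbr1 are shown because the first belongs to the viewpoint gene and the second is the element removed in 1 of the limb alleles. Both are 300 bases from RefSeq (GRCm38.p6, another build than that of the maps), 250 before the start of the gene and 50 after it, with each CpG in capitals. Where the Lmbr1 deletion starts and ends was not given in the labels.
Rbm33 (chr5:28316939-28317238, plus strand): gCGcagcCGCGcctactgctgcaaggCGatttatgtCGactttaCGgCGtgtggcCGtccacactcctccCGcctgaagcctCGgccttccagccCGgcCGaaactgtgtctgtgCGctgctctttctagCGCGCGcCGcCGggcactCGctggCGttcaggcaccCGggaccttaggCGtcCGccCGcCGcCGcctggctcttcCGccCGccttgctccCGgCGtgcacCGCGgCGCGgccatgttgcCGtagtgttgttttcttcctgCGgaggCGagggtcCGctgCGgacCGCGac
Lmbr1 (chr5:29378341-29378640, minus strand): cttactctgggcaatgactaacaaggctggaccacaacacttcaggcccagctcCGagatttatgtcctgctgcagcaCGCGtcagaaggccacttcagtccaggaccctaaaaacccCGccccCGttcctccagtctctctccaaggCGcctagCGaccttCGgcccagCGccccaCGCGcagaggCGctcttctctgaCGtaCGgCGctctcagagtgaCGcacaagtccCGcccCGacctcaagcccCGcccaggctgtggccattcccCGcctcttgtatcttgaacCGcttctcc
The Rbm33 promoter holds 41 CpG and 69.7% G and C, and 3.46% of 32851 mouse promoters of this length hold as many CpG, whose median is 7. That of Lmbr1 holds 21 CpG and 62% G and C, and 24.8% of promoters hold as many. Letters AGGNGGC, part of the CTCF motif, were searched on both strands. They occur once in the Rbm33 window and not in the Lmbr1 window, and 29.4% of the promoters hold them.

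Values are observed over expected. Each pair's balanced signal was divided by the average that the map itself holds for pairs of equal separation, so that 1 is the average for that distance. The expected value averages pairs within domains and pairs across their borders. Whole contact counts could be recovered from the balanced signal. The maps hold 1177173 to 3218492 contacts, fewest in limb i4i5 and most in ES cells, and the Rbm33 viewpoint 59166 to 135916. The poorest partner bin held 19 to 42 of them. Intervals are 95% intervals of these counts. They cover counting error only and compare the libraries, not the conditions, and with 1 merged map a group no p-value is given.

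In wild type limb Rbm33 met its surroundings in a sequence of high and low stretches. Near the viewpoint, contact with the lower side was somewhat below the average for its distance, 0.874 (0.861 to 0.888) over the first 10 bins (28540001 to 28640000). The profile then rose to a peak at -540 kb (distances are from the nearest viewpoint bin, negative towards En2), at 2.18 in the bin 28100001 to 28110000 (819 contacts), and dropped to 0.507 (0.479 to 0.537) over the 14 bins at the lower end of the map. On the other side, contact was already low in the first 10 bins of the Shh domain (28770001 to 28870000), at 0.475 (0.460 to 0.490). Contact with the near part of the domain was thus lower than contact at the same distance below Rbm33.

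Moving through the domain in steps of 100 kb, contact of Rbm33 in wild type limb was 0.475, 0.435, 0.500, 0.629, 0.781, 0.919, 1.21, 1.67 and, in the last 13 bins, 2.73. It was thus lowest in the second step and higher at each step after that. The smoothed profile (mean of 3 neighbouring bins) first passed 1 at 610 kb (29350001 to 29360000) and reached its highest point at 910 kb (29650001 to 29660000), where the bin itself stood at 3.05 (2.84 to 3.27, 833 contacts). Beyond the domain it remained above the average, at 2.70 in the next bin, 1.64 (1.62 to 1.67) over the following 500 kb (the upper flank, 29710001 to 30210000) and 1.15 (1.11 to 1.18) from there to the end of the map. The bins with the highest contact were thus those around the far domain end, not those beside Shh.

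**Figure D1:**
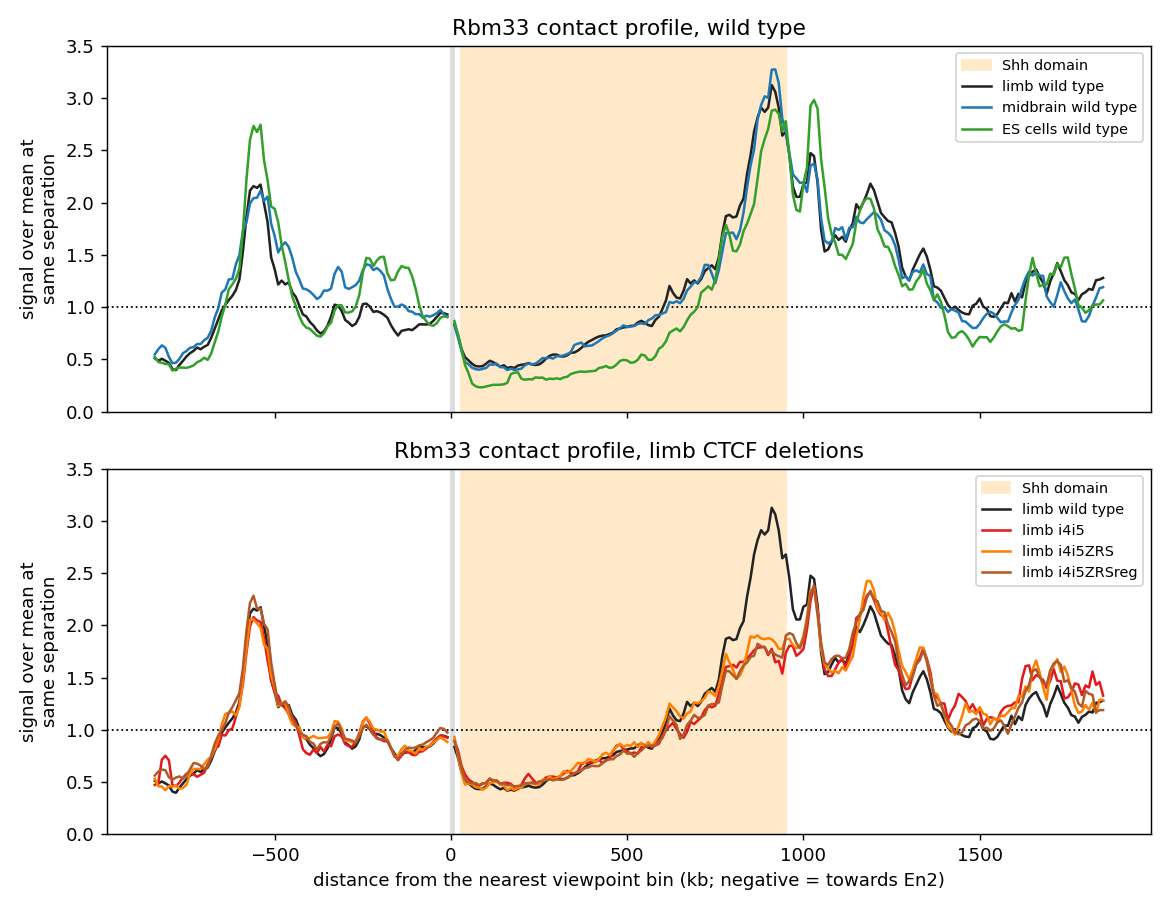
Contact profile of Rbm33, as signal over the mean at the same separation (y axis, smoothed over 3 bins) against the distance from the nearest viewpoint bin (x axis, kb, negative towards En2), for the 3 wild type maps (top) and for wild type limb with the 3 limb maps lacking i4 and i5 (bottom). The shaded band is the Shh domain and the dotted line the average for the distance. All profiles peak near -550 kb and are low in the near part of the domain, and the peak at the far domain end, 3.12 in wild type limb, is lower in the 3 deletion maps (1.79 to 1.90).

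The lower peak was present in each of the 9 maps. The smoothed profile was highest between -560 and -540 kb, at 2.06 to 2.28 in 8 maps and 2.75 in ES cells. The lower side as a whole stood at 0.963 in wild type limb, 0.962 in limb ZRSreg, 1.08 in the limb Lmbr1 promoter deletion, 0.976 in limb i4i5ZRS, 0.952 in limb i4i5, 1.01 in limb i4i5ZRSreg, 1.11 in ES cells, 1.17 in midbrain i4i5ZRS and 1.15 in wild type midbrain. The 84 bins were uneven, with an SD over bins of 0.413 in wild type limb. Both midbrain maps, ES cells and the Lmbr1 promoter deletion were above the remaining limb maps, whose intervals lie at or below 1.02.

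The Shh domain as a whole stood at 1.09 in wild type limb, 1.06 in limb ZRSreg, 1.06 in the limb Lmbr1 promoter deletion, 0.965 in limb i4i5ZRS, 0.921 in limb i4i5, 0.910 in limb i4i5ZRSreg, 0.850 in ES cells, 0.896 in midbrain i4i5ZRS and 1.07 in wild type midbrain. Wild type limb and midbrain, ZRSreg and the Lmbr1 promoter deletion lie above 1, and ES cells and the 4 maps without i4 and i5 below it. This mean joins an avoided near part and a contacted far end. Over the first 63 domain bins (28770001 to 29400000) Rbm33 stood at 0.409 in ES cells and at 0.600 to 0.674 in the other 8 maps. Over the last 30 (29400001 to 29700000) it stood at 1.78 to 2.03 in the 5 maps that keep i4 and i5 and at 1.47 to 1.58 in the 4 that lack them, without overlap.

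The side ratio sets the lower side against the domain, as a log2 ratio that is above 0 where Rbm33 leaned towards En2. It was -0.18 (-0.21 to -0.16) in wild type limb, -0.14 (-0.16 to -0.11) in limb ZRSreg, 0.02 (-0.01 to 0.05) in limb i4i5ZRS, 0.03 (0.0024 to 0.05) in the Lmbr1 promoter deletion and 0.05 (0.01 to 0.08) in limb i4i5. It was 0.10 (0.08 to 0.13) in wild type midbrain, 0.15 (0.12 to 0.17) in limb i4i5ZRSreg, 0.39 (0.36 to 0.42) in midbrain i4i5ZRS and 0.39 (0.36 to 0.42) in ES cells. Wild type limb and ZRSreg leaned towards the domain, the interval of i4i5ZRS included 0, and ES cells and midbrain i4i5ZRS leaned furthest towards En2. The sign of this ratio depends on the distances that enter it: with separations of 500 kb or less it was positive in all 9 maps, from 0.63 in limb i4i5 to 1.64 in ES cells. From recovered counts without balancing it was -0.012 in wild type midbrain, -0.064 in limb i4i5 and -0.092 in the Lmbr1 promoter deletion.

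At equal distance the 2 sides could be set against each other directly. Between 30 and 90 kb Rbm33 met the lower side at 0.838 to 0.940 over the 9 maps and the domain at 0.386 to 0.505. Between 100 and 240 kb the values were 0.846 to 1.21 and 0.301 to 0.512, and between 250 and 490 kb 0.899 to 1.26 and 0.360 to 0.608. The side towards En2 was higher in each map at these distances and also between 500 and 740 kb (1.30 to 1.57 against 0.643 to 0.974). Between 750 and 840 kb, the farthest class compared, the order was turned, at 0.472 to 0.626 against 1.22 to 1.49. Pairs farther apart, which reach 940 kb on the lower side, were not put in a class.

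The 2 bins of the Shh promoter (28780001 to 28800000), 40 to 150 kb from the Rbm33 bins, were met less than the average for their distance in each map. Rbm33 met them at 0.519 in wild type limb, 0.467 in limb ZRSreg, 0.540 in the limb Lmbr1 promoter deletion, 0.521 in limb i4i5ZRS, 0.549 in limb i4i5, 0.509 in limb i4i5ZRSreg, 0.423 in ES cells, 0.446 in midbrain i4i5ZRS and 0.470 in wild type midbrain. The intervals of ES cells and limb i4i5 do not meet (0.402 to 0.445 against 0.514 to 0.587). The 2 bins between viewpoint and domain, which lie nearer, stood at 0.824 to 0.931. The next 11 bins towards En2 (28530001 to 28640000), farther from Shh, met the promoter bins at 0.516 to 0.885, above Rbm33 in each map.

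The ZRS window, the 5 bins from 29620001 to 29670000 centred 850 kb above the Shh promoter bin, lies at the far end of the domain, where contact with Rbm33 was high. Rbm33 met it at 3.19 (counting interval 3.06 to 3.32, 2843 contacts) in wild type midbrain, 3.04 (counting interval 2.94 to 3.15, 3610 contacts) in wild type limb and 2.79 (counting interval 2.66 to 2.92, 2021 contacts) in ES cells. It met it at 2.99 (counting interval 2.88 to 3.11, 2942 contacts) in limb ZRSreg and 3.07 (counting interval 2.97 to 3.18, 3579 contacts) in the Lmbr1 promoter deletion. These 5 maps, which keep the CTCF sites i4 and i5, lie between 2.79 and 3.19. ES cells are the lowest of them, with an interval that meets only that of limb ZRSreg.

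The 4 maps that lack i4 and i5 were lower. Rbm33 met the ZRS window at 1.78 (counting interval 1.65 to 1.91, 925 contacts) in limb i4i5, 1.79 (counting interval 1.70 to 1.88, 1853 contacts) in limb i4i5ZRSreg and 1.89 (counting interval 1.78 to 1.999, 1317 contacts) in limb i4i5ZRS. In midbrain i4i5ZRS the value was 2.06 (counting interval 1.96 to 2.17, 1608 contacts). The highest of these, 2.06, is below the lowest of the 5 other maps, 2.79, and all 4 remained above the average for the distance.

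**Figure D2:**
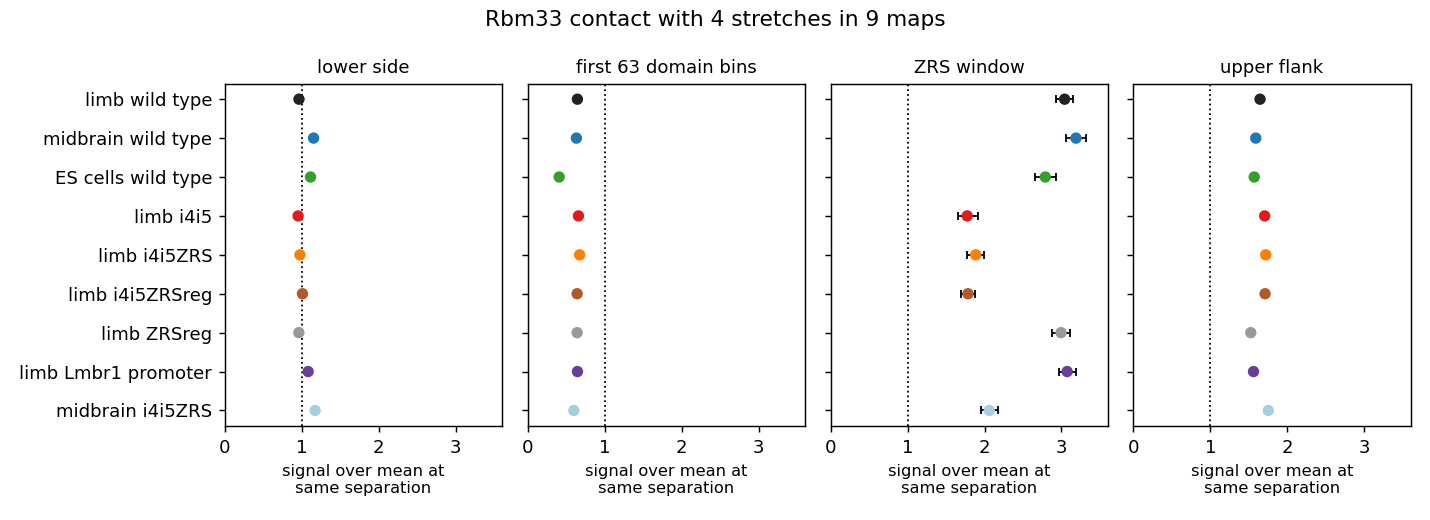
Contact of Rbm33 with the lower side, the first 63 domain bins, the ZRS window and the upper flank in each of the 9 maps, as signal over the mean at the same separation (x axis). Points are the merged maps and bars 95% counting intervals, which are narrower than the points in most panels. The ZRS window separates the 4 maps without i4 and i5 (1.78 to 2.06) from the 5 others (2.79 to 3.19), and ES cells stand lowest in the first 63 domain bins (0.409).

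Wild type midbrain was compared with wild type limb, which asks whether Rbm33 is folded alike in a tissue that does not use the limb enhancer. The difference lay mainly on the side towards En2. Rbm33 contacts with the lower side were 19.7% higher in midbrain, with a log2 ratio of 0.26 (0.24 to 0.28), and 80 of 84 bins were higher. In the stretches from 28440001 to 28540000, 28340001 to 28440000 and 28240001 to 28340000 the log2 ratios were 0.41 (0.37 to 0.45), 0.47 (0.42 to 0.51) and 0.46 (0.38 to 0.55), with all 10 bins of each higher. The stretch that holds the lower peak (28040001 to 28140000) differed less, by 0.05 (0.0014 to 0.11). The shoulder at -240 kb (28400001 to 28410000) stood at 1.41 in the smoothed midbrain profile and at 1.03 in limb. Over the domain the difference was small, at -0.03 (-0.05 to -0.0023) for all 93 bins and 0.07 (-0.01 to 0.14) at the ZRS window. The Shh promoter bins were lower in midbrain, at 0.470 against 0.519. From 30210001 to the end of the map midbrain was also lower, at 1.04 (0.999 to 1.08) against 1.15 (1.11 to 1.18). The deepest difference, -0.41 (-0.75 to -0.06), was there, at 1800 kb (30540001 to 30550000).

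Bin by bin, 1 partner bin of 269 was at least 1.5-fold higher (background 0.116%) and 0 at least 1.5-fold lower (background 0.223%). The background is the share of all partner bins past the same fold over the profiles of every stretch of the same width along the maps. The single bin, 28280001 to 28290000 at -360 kb, had a log2 ratio of 0.59 (0.42 to 0.77). The side ratio was higher by 0.29 (0.25 to 0.32) in midbrain, and it was higher for each of the 11 Rbm33 bins.

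ES cells differed from wild type limb on both sides of Rbm33. In the first 63 domain bins the log2 ratio was -0.66 (-0.70 to -0.62), with 1 of 63 bins higher, and with the Shh promoter bins it was -0.29 (-0.39 to -0.20). The difference at the ZRS window was smaller, -0.12 (-0.21 to -0.04), and it was -0.32 from recovered counts without balancing. On the lower side the stretch from 28440001 to 28540000 was 67.97% higher in ES cells (1.38 against 0.819, log2 ratio 0.75, interval 0.71 to 0.79), and the lower peak stretch 21.2% higher (2.27 against 1.87). Between them, from 28240001 to 28340000, the maps did not differ beyond counting error (log2 ratio -0.05, interval -0.13 to 0.03), so the gain on the lower side was not uniform. ES cells thus combined the lowest contact with the near domain and the highest contact at the lower peak among the 9 maps.

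Counted by bins, 10 partner bins of 269 were at least 1.5-fold higher (background 1.19%) and 50 at least 1.5-fold lower (background 7.73%) in ES cells. The 10 higher bins all lay on the lower side between 28430001 and 28540000, and from recovered counts without balancing they were 2. At a fold of 2 no bin was past the fold in this or any other comparison. Of the 50 lower bins, 47 lay in the Shh domain and 3 above it. Both shares, 3.72% and 18.6%, are above their backgrounds, and the median over the 269 partner bins was shifted by -0.18. The deepest difference, -0.97 (-1.10 to -0.84), was at 110 kb (28850001 to 28860000, 0.248 against 0.486 over 3 bins, 1190 and 2053 contacts). The highest was 0.88 (0.81 to 0.95) at -150 kb (28490001 to 28500000). The side ratio was higher by 0.57 (0.54 to 0.61) in ES cells, for each of the 11 Rbm33 bins, and by 0.90 with separations of 500 kb or less.

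**Figure D3:**
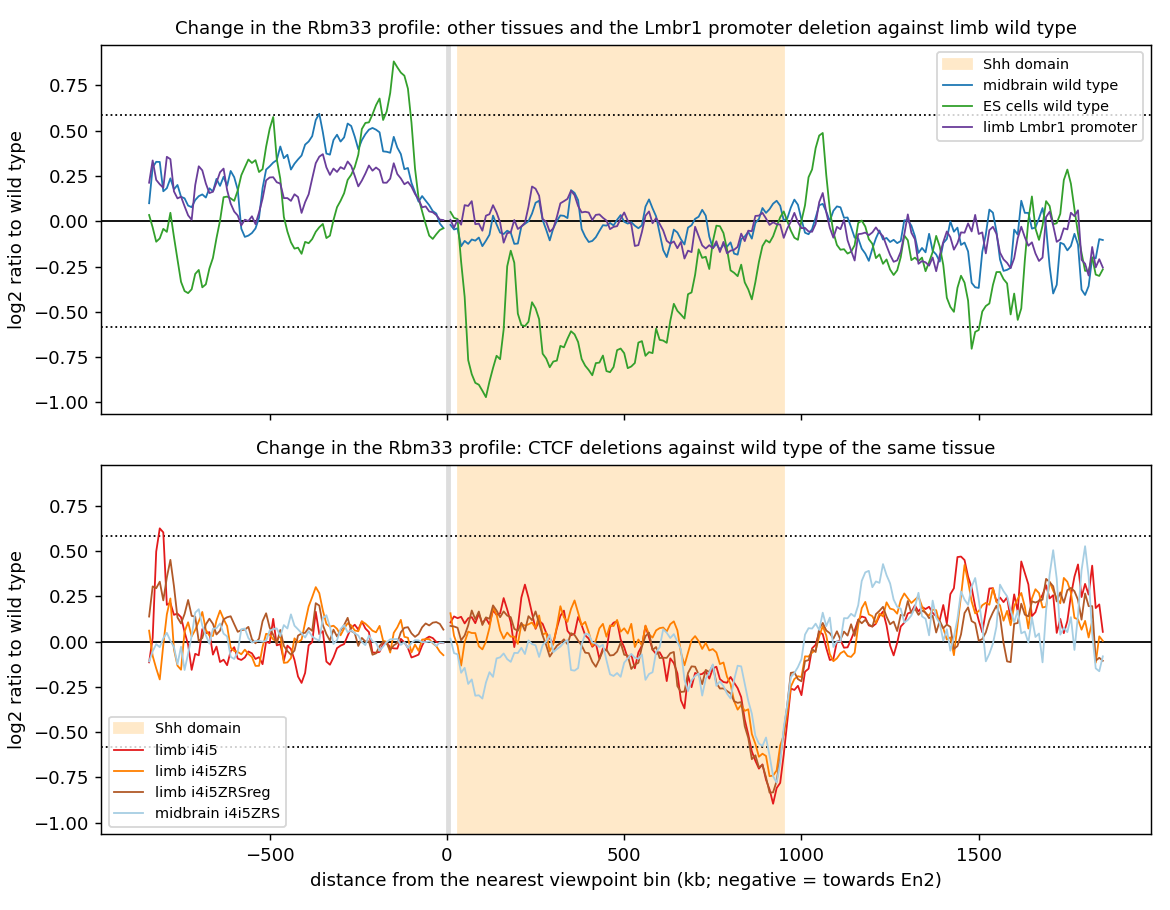
Log2 ratio of the smoothed Rbm33 profile between maps (y axis) against distance from the nearest viewpoint bin (x axis, kb), for wild type midbrain, ES cells and the Lmbr1 promoter deletion over wild type limb (top) and for the 4 maps without i4 and i5 over wild type of their tissue (bottom). Dotted lines mark 1.5-fold. ES cells lie past it in the near domain, with a low of -0.97, and the 4 deletion maps near 910 kb, with lows from -0.90 to -0.74.

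The comparison of alleles without CTCF sites with wild type asks what these sites contribute to the folding of the locus. For Rbm33 the difference to wild type limb was concentrated at the far end of the Shh domain. At the ZRS window the log2 ratio was -0.78 (-0.89 to -0.66) in i4i5, -0.69 (-0.79 to -0.59) in i4i5ZRS and -0.77 (-0.85 to -0.68) in i4i5ZRSreg, a change of -41.6%, -38.00% and -41.3%, with none of the 5 bins higher. The bin just above the domain (29700001 to 29710000) was also lower, and its log2 ratios were -0.40 (-0.66 to -0.14), -0.46 (-0.69 to -0.22) and -0.27 (-0.48 to -0.07). In the upper flank the ratios were small and positive, 0.05, 0.06 and 0.06, and from 30210001 to the end of the map they were 0.23 (0.16 to 0.31), 0.19 (0.12 to 0.26) and 0.16 (0.09 to 0.22).

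Nearer to Rbm33 the 3 maps stayed close to wild type limb in the means over longer stretches, but not in each 100 kb step. With the first 63 domain bins the log2 ratios were 0.03 (-0.01 to 0.07) in i4i5, 0.06 (0.03 to 0.10) in i4i5ZRS and -0.01 (-0.04 to 0.02) in i4i5ZRSreg. With the Shh promoter they were 0.08 (-0.03 to 0.20), 0.01 (-0.10 to 0.11) and -0.03 (-0.12 to 0.07), intervals that all include 0. With the lower side they were -0.02 (-0.05 to 0.01), 0.02 (-0.01 to 0.04) and 0.07 (0.04 to 0.09). In the first 10 domain bins i4i5 stood at 0.518 (0.494 to 0.543), i4i5ZRSreg at 0.506 and i4i5ZRS at 0.464. Wild type limb stood at 0.475 (0.460 to 0.490) there. In the next 10 bins i4i5 stood at 0.490 (0.464 to 0.518) and i4i5ZRSreg at 0.478 (0.460 to 0.497). There i4i5ZRS stood at 0.461 (0.441 to 0.483) and wild type limb at 0.435 (0.420 to 0.452). The side ratio was higher than in wild type limb, by 0.23 (0.19 to 0.27), 0.20 (0.16 to 0.24) and 0.33 (0.30 to 0.37) with the far end of the domain included. With separations of 500 kb or less these differences were -0.11, -0.024 and 0.0023.

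By bins, in i4i5 2 partner bins of 269 were at least 1.5-fold higher (background 1.06%) and 10 at least 1.5-fold lower (background 1.01%). The 10 lower bins were the last 10 of the domain (29600001 to 29700000), and the 2 higher bins lay at the lower end of the map, where they are a smaller share than the background. In i4i5ZRS 0 partner bins of 269 were at least 1.5-fold higher (background 0.580%) and 6 at least 1.5-fold lower (background 0.819%), and the 6 lay between 29620001 and 29680000 (10 bins with the median as the expected value). In i4i5ZRSreg 0 partner bins of 269 were at least 1.5-fold higher (background 0.496%) and 9 at least 1.5-fold lower (background 0.671%), and the 9 lay between 29600001 and 29690000. Each share of lower bins, 3.72%, 2.23% and 3.35%, is above its background. The deepest bin was 29660001 to 29670000 in i4i5, with -0.90 (-1.06 to -0.73), and 29650001 to 29660000 in i4i5ZRS, with -0.74 (-0.86 to -0.62), and in i4i5ZRSreg, with -0.83 (-0.94 to -0.73). With the peak lowered, the highest domain bin of the smoothed Rbm33 profile lay at 890 kb in i4i5, 870 kb in i4i5ZRS and 950 kb in i4i5ZRSreg, at 1.79, 1.90 and 1.90.

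Recovered coverage of the ZRS window, against the median bin of its map, was lowest in limb i4i5 (log2 -0.55, against -0.45 to -0.26 in the others), and its part in the Rbm33 value was not tested. With the first 3 bins of the window alone (29620001 to 29650000) the log2 ratio of i4i5 to wild type limb was -0.68 (-0.82 to -0.54). Set against the G4 limb map of ZRSreg in place of the C57BL/6 wild type, the ratio of i4i5ZRSreg was -0.75 (-0.83 to -0.66), and 8 bins were at least 1.5-fold lower (29610001 to 29690000, background 0.774%) and 0 higher (background 0.950%).

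The 11 Rbm33 bins did not share the distal contact equally. In wild type limb the bin farthest from Shh (28640001 to 28650000) met the ZRS window at 2.39 (2.07 to 2.74), and the 2 bins nearest to Shh met it at 4.22 (3.79 to 4.69) and 4.17 (3.85 to 4.52). Averaged over the first 8 bins the contact was 2.73 in wild type midbrain, 2.66 in wild type limb and 2.42 in ES cells. Over the last 3 it was 4.40, 4.05 and 3.77. The stretch of Rbm33 nearest to the border thus carried the strongest contact with the far domain end.

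The gradient was also present without i4 and i5. The first 8 bins stood at 1.63 in i4i5, 1.74 in i4i5ZRS and 1.60 in i4i5ZRSreg, and the last 3 at 2.15, 2.28 and 2.28. The log2 ratios to wild type limb were -0.71 (-0.85 to -0.56), -0.62 (-0.74 to -0.49) and -0.73 (-0.85 to -0.62) for the first 8 bins and -0.91 (-1.10 to -0.73), -0.83 (-0.98 to -0.68) and -0.83 (-0.96 to -0.70) for the last 3. The intervals of both stretches overlap in each allele, and the difference between them was not tested. Towards the Shh promoter the farthest bin was above the nearest in wild type limb, at 0.721 (0.619 to 0.837) against 0.460 (0.421 to 0.502). The fall between them was not steady, and the lowest bin was 28690001 to 28700000, at 0.374 (0.317 to 0.438). In the same map the log2 side ratio was above 0 in 3 of the 11 bins, and it was -0.04 over the first 8 and -0.52 over the last 3.

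**Figure D4:**
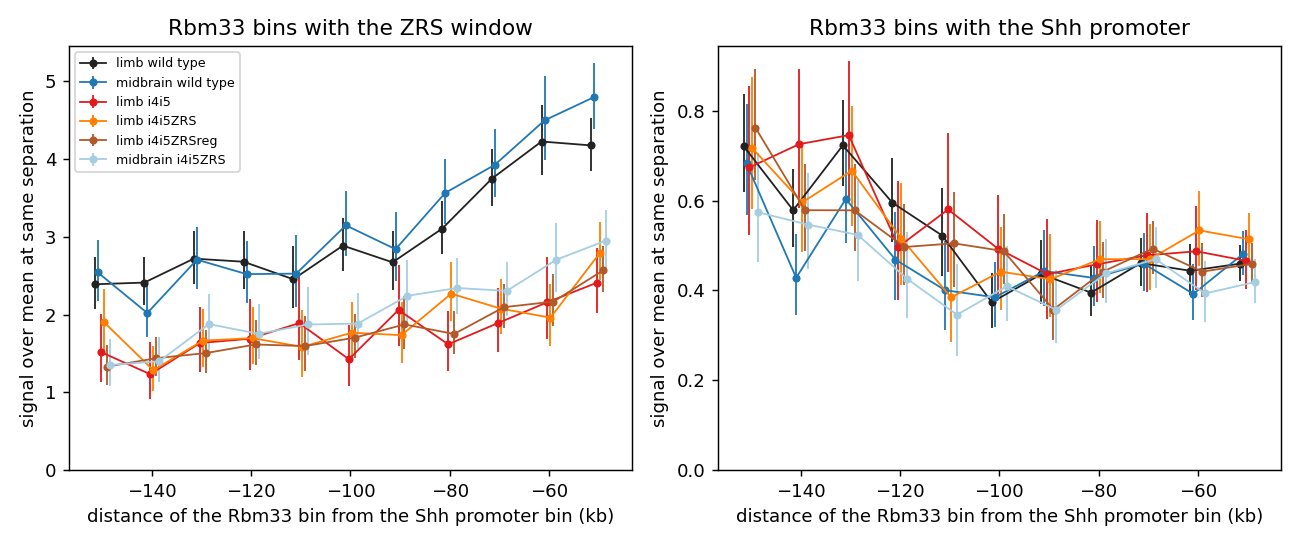
Contact of each of the 11 Rbm33 bins with the ZRS window (left) and with the Shh promoter bins (right), as signal over the mean at the same separation (y axis), by the distance of the Rbm33 bin from the Shh promoter bin (x axis, kb). Bars are 95% counting intervals. In wild type limb the contact with the ZRS window goes from 2.39 at the far bin to 4.17 at the near one, and in limb i4i5 from 1.52 to 2.41.

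The lower contact with the ZRS window extended below Rbm33. The next 11 bins towards En2 met the window at 2.14 in wild type limb, against 1.32 in i4i5, 1.36 in i4i5ZRS and 1.42 in i4i5ZRSreg. Their log2 ratios to wild type limb, -0.70 (-0.83 to -0.56), -0.65 (-0.77 to -0.53) and -0.59 (-0.69 to -0.49), are near those of Rbm33, with overlapping intervals in i4i5 and i4i5ZRS. In level the neighbour was below Rbm33 in each of the 9 maps (1.21 to 2.21 against 1.78 to 3.19). Rbm33 is thus not shown to differ from the stretch below it in how far its contact was reduced in those 2 alleles. In i4i5ZRSreg the intervals, -0.85 to -0.68 for Rbm33 and -0.69 to -0.49 for the neighbour, meet only at their ends.

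In midbrain the i4i5ZRS deletion gave a like picture at the far end and another in the first 10 domain bins. At the ZRS window the log2 ratio to wild type midbrain was -0.63 (-0.72 to -0.53), and 0 partner bins of 269 were at least 1.5-fold higher (background 0.907%) and 4 at least 1.5-fold lower (background 0.717%). The 4 bins lay between 29650001 and 29690000 (8 bins with the median as the expected value or without balancing), and the share of 1.49% is above its background. With the first 10 domain bins Rbm33 had less contact than in wild type midbrain, 0.373 against 0.440 (log2 ratio -0.24, interval -0.31 to -0.16), whereas the same allele in limb gave -0.03 (-0.11 to 0.04). The upper flank was 10.2% higher, at 0.14 (0.10 to 0.18), and the lower side did not differ beyond counting error (log2 ratio 0.02, interval -0.00075 to 0.05). The side ratio was higher by 0.28 (0.25 to 0.32), for each of the 11 Rbm33 bins, and by 0.11 with separations of 500 kb or less. Both i4i5ZRS maps differed between tissues on the lower side as the wild type maps did, by 0.26 (0.24 to 0.29).

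The ZRSreg deletion left the Rbm33 profile close to wild type limb. The log2 ratio was -0.02 (-0.10 to 0.05) at the ZRS window and -0.0022 (-0.03 to 0.02) on the lower side. The upper flank was lower, at -0.11 (-0.14 to -0.08), and so were the Shh promoter bins, at -0.15 (-0.25 to -0.05). By bins, 0 partner bins of 269 were at least 1.5-fold higher (background 0.0978%) and 0 at least 1.5-fold lower (background 0.0675%). The side ratio was higher by 0.04 (0.01 to 0.08), the smallest change among the 7 comparisons with wild type limb.

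In the Lmbr1 promoter deletion the largest differences for Rbm33 lay on the lower side, with smaller ones of the other sign above it. Contact of Rbm33 with the lower side was 12.4% higher than in wild type limb, at 0.17 (0.15 to 0.19), with 75 of 84 bins higher. From 28440001 to 28540000, 28340001 to 28440000 and 28240001 to 28340000 the log2 ratios were 0.25 (0.21 to 0.29), 0.27 (0.22 to 0.31) and 0.26 (0.18 to 0.34). Midbrain, compared with the same wild type limb map, had higher ratios in these 3 stretches, but not in that from 27940001 to 28040000 (0.22 in the deletion and 0.19 in midbrain). The ZRS window (log2 ratio 0.02, interval -0.06 to 0.09) and the first 63 domain bins (0.0021, -0.03 to 0.03) did not differ beyond counting error. Contact was lower in the domain bins from 29470001 to 29570000, at -0.15 (-0.21 to -0.08), in the upper flank, at -0.08 (-0.11 to -0.04), and beyond it, at -0.11 (-0.17 to -0.04). By bins, 0 partner bins of 269 were at least 1.5-fold higher (background 0.0592%) and 0 at least 1.5-fold lower (background 0.0262%). Both counts are near the background. The largest gain was in the bin 28290001 to 28300000, at 0.37 (0.21 to 0.53).

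The side ratio of the Lmbr1 promoter deletion was higher by 0.21 (0.18 to 0.24) than in wild type limb, for each of the 11 Rbm33 bins. That is about as far from wild type limb, which these comparisons share, as i4i5 and i4i5ZRS were, but by other parts. In the promoter deletion the log2 ratio was 0.17 on the lower side and -0.04 (-0.06 to -0.02) over the domain. In i4i5 and i4i5ZRS the domain differed more, at 0.921 and 0.965 against 1.09, and the lower side little, at 0.952 and 0.976 against 0.963. With separations of 500 kb or less the side ratio differences were 0.17 in the promoter deletion, -0.11 in i4i5 and -0.024 in i4i5ZRS. With the promoter deletion map as the reference in place of wild type limb, the side ratio of i4i5 differed by 0.022, that of i4i5ZRS by -0.0094 and that of i4i5ZRSreg by 0.12.

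Alleles whose names add ZRS or ZRSreg to i4i5 differed little from i4i5 in the contact of Rbm33 with the ZRS window. There i4i5ZRS stood 0.09 (-0.05 to 0.22) and i4i5ZRSreg 0.01 (-0.12 to 0.13) from i4i5 on the log2 scale, with both intervals including 0. Over the whole Shh domain i4i5ZRS was higher than i4i5, at 0.965 (0.950 to 0.980) against 0.921 (0.905 to 0.939). The domain value of i4i5ZRSreg was 0.910 (0.898 to 0.922). By bins, comparing i4i5ZRS with i4i5, 0 partner bins of 269 were at least 1.5-fold higher (background 0.260%) and 3 at least 1.5-fold lower (background 0.230%). The 3 lower bins lay at the lower end of the map (27820001 to 27850000), the lowest with 103 and 98 contacts over 3 bins. Comparing i4i5ZRSreg with i4i5, 0 partner bins of 269 were at least 1.5-fold higher (background 0.150%) and 0 at least 1.5-fold lower (background 0.0812%). The lower peak stretch was 11.1% higher in i4i5ZRSreg than in i4i5 (log2 ratio 0.15, interval 0.09 to 0.21), and the side ratio higher by 0.10 (0.06 to 0.15).

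In raw contacts at separations of 20 kb or more, the lower side took 49.2% (48.9% to 49.5%) of the Rbm33 contacts in wild type midbrain, 43.95% (43.7% to 44.2%) in wild type limb and 60.3% (60.00% to 60.6%) in ES cells (Wilson intervals). The Shh domain took 33.1%, 35.8% and 25.02% of them. The bins above the domain took 18.3% in wild type limb against 22.4% in i4i5, 19.7% in i4i5ZRS and 22.4% in i4i5ZRSreg. The share beyond the domain was thus higher in all 3 than in wild type limb, and ES cells had the highest share on the side of En2 of the 9 maps.

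The likeness of whole Rbm33 profiles was described by rank correlation over the 261 partner bins at 50 kb or more, which share libraries and are not independent. It was highest between wild type limb and limb ZRSreg (0.975) and lowest between ES cells and limb i4i5 (0.845), the deepest and the shallowest map. Over the 80 bins of the lower side alone, the 8 pairs with ES cells (0.761 to 0.847) lie below all other pairs (0.885 to 0.980). Over the 91 bins of the domain all pairs lie between 0.941 and 0.987. The order of the domain bins as seen from Rbm33 was thus alike in the 9 maps, although their levels differed.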

How the data were processed

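Capture Hi-C contacts around Shh were mapped in 9 merged maps from 19 samples. Each deposited value is the balanced contact signal of a pair of 10 kb bins. The files have no header lines, and per the labels the build is mm9. Per the submitters' processing notes, cutadapt 1.15, Bowtie2 2.3.4.1, Juicer and SAMtools were used, with no roles stated. Knight-Ruiz balancing and a mapping quality of 30 stand in the names under which the authors deposited the maps. The samples of a group were merged before deposit, so no test between groups was possible.

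From the deposited signal, observed over expected was computed per map, with pairs not listed counted as 0. Whole contact counts were recovered by dividing out bin factors (values within 0.01 of a whole number) and gave 95% counting intervals (gamma for levels, delta method for log2 ratios, Wilson for shares). PCR reads without molecular identifiers are not independent molecules, so these intervals cover counting error only. Partner bins were counted at 1.5-fold on profiles smoothed over 3 bins. Partners named are the Shh promoter bins, the ZRS window, the domain ends and, in each map or comparison, the highest and lowest bins at 100 kb or more. The ZRS window was placed from general knowledge of its distance. The viewpoint, stretches and comparisons were chosen with earlier results of these data known. Scripts were tested on simulated data. Python 3.11.15, numpy 2.4.6, scipy 1.17.1 and pandas 2.3.3 were used. Alternatives covered the expected value, balancing, separations, viewpoint width, smoothing, fold, depth and reference map. Promoter sequences came from RefSeq (GRCm38.p6), whose table matched Rbm33 and Lmbr1.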

Additional observations from a re-analysis of the deposited data

Results flagged for a closer look

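The i4i5ZRS deletion was examined in limb and in midbrain, and 2 overlapping stretches of the Shh domain moved in opposite directions as seen from Rbm33. With the domain bins from 29170001 to 29270000 the log2 ratio of deletion to wild type was 0.08 in limb and -0.11 in midbrain. With the first 63 domain bins, which include that stretch, it was 0.06 in limb and -0.08 in midbrain. The 2 values of a tissue are thus not separate observations. Both stretches were picked from all partner stretches because the counting intervals of each pair leave out 0 on opposite sides. Each condition is 1 merged map, so the difference between the tissues was not tested. The deletion maps are of the G4 background and the wild type maps of C57BL/6 in both tissues.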

How the results depend on the processing

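No paired analysis was possible because the samples of each group were merged before deposit, and for the same reason no replicate could be left out. For the ZRS window change of Rbm33, 63 values under an alternative moved by less than the counting error and 9 by more, and no change whose interval leaves out 0 turned sign. For the count of partner bins 137 stayed within 1.5 times and 39 did not. For the side ratio difference 65 moved by less than the counting error, 25 by more and 4 turned sign, and for the side ratio itself 22, 40 and 10. Separations of 50 kb or more alone moved none of these results past those bounds. The values that moved follow. Differences are against wild type of the same tissue (for ES cells and wild type midbrain, against wild type limb) unless named, and for all of them the cause was not tested. The alternatives for the ZRS window change were chosen after seeing the data.

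With the median in place of the mean as the expected value, the side ratio was -0.28 in wild type limb, -0.24 in limb ZRSreg, -0.072 in the Lmbr1 promoter deletion (sign turned), -0.031 in limb i4i5ZRS, 0.0079 in limb i4i5, 0.11 in limb i4i5ZRSreg, 0.31 in ES cells, 0.32 in midbrain i4i5ZRS and -0.0048 in wild type midbrain (sign turned). The side ratio difference to the reference was 0.25 in limb i4i5ZRS, 0.29 in limb i4i5, 0.39 in limb i4i5ZRSreg, 0.35 in limb i4i5ZRSreg against ZRSreg and 0.32 in midbrain i4i5ZRS. The ZRS window change was -0.91 in limb i4i5, -0.87 in limb i4i5ZRSreg and -0.88 in limb i4i5ZRSreg against ZRSreg. The partner bins past the fold numbered 10 in limb i4i5ZRS (lower), 0 in limb i4i5 (higher), 8 in midbrain i4i5ZRS (lower) and 0 in wild type midbrain (higher). From recovered counts without balancing, the side ratio was -0.28 in wild type limb, -0.25 in limb ZRSreg, -0.092 in the Lmbr1 promoter deletion (sign turned), -0.096 in limb i4i5ZRS, -0.064 in limb i4i5 (sign turned), 0.058 in limb i4i5ZRSreg, 0.25 in midbrain i4i5ZRS and -0.012 in wild type midbrain (sign turned). The side ratio difference to the reference was 0.68 in ES cells. The ZRS window change was -0.92 in limb i4i5, -0.32 in ES cells and -0.73 in midbrain i4i5ZRS. The partner bins past the fold numbered 3 in the Lmbr1 promoter deletion (higher), 1 in limb i4i5ZRS (higher), 5 in limb i4i5ZRS against i4i5 (higher), 0 in limb i4i5ZRS against i4i5 (lower), 0 in limb i4i5 (higher), 2 in limb i4i5ZRSreg against i4i5 (higher), 2 in ES cells (higher), 3 in midbrain i4i5ZRS (higher) and 8 in midbrain i4i5ZRS (lower). With an expected value from pairs outside the viewpoint, the side ratio was -0.24 in wild type limb, -0.19 in limb ZRSreg, -0.025 in the Lmbr1 promoter deletion (sign turned), 0.34 in ES cells and 0.051 in wild type midbrain. The side ratio difference to the reference was 0.37 in limb i4i5ZRSreg. The ZRS window change was -0.86 in limb i4i5ZRSreg. With the viewpoint cut by its first and last bin, the side ratio was -0.15 in wild type limb, -0.099 in limb ZRSreg, 0.073 in the Lmbr1 promoter deletion, 0.048 in limb i4i5ZRS, 0.18 in limb i4i5ZRSreg, 0.46 in ES cells, 0.43 in midbrain i4i5ZRS and 0.16 in wild type midbrain. Past the fold were 0 partner bins in limb i4i5 (higher) and 2 in wild type midbrain (higher). With separations of 500 kb or less, the side ratio was 0.75 in wild type limb (sign turned), 0.76 in limb ZRSreg (sign turned), 0.91 in the Lmbr1 promoter deletion, 0.72 in limb i4i5ZRS, 0.63 in limb i4i5, 0.75 in limb i4i5ZRSreg, 1.64 in ES cells, 1.24 in midbrain i4i5ZRS and 1.13 in wild type midbrain. Against the reference it differed by 0.17 in the Lmbr1 promoter deletion, -0.024 in limb i4i5ZRS (sign turned), 0.091 in limb i4i5ZRS against i4i5, -0.11 in limb i4i5 (sign turned), 0.0023 in limb i4i5ZRSreg, -0.014 in limb i4i5ZRSreg against ZRSreg (sign turned), 0.90 in ES cells, 0.11 in midbrain i4i5ZRS and 0.38 in wild type midbrain. With the separations present on both sides, the side ratio was 0.060 in wild type limb (sign turned), 0.090 in limb ZRSreg (sign turned), 0.27 in the Lmbr1 promoter deletion, 0.16 in limb i4i5ZRS, 0.18 in limb i4i5, 0.29 in limb i4i5ZRSreg, 0.71 in ES cells, 0.56 in midbrain i4i5ZRS and 0.36 in wild type midbrain. Against the reference it differed by 0.098 in limb i4i5ZRS, 0.12 in limb i4i5, 0.23 in limb i4i5ZRSreg, 0.20 in limb i4i5ZRSreg against ZRSreg, 0.65 in ES cells and 0.21 in midbrain i4i5ZRS. After thinning to the shallowest map (chosen after seeing the data), the side ratio was -0.17 in limb ZRSreg and 0.42 in midbrain i4i5ZRS. Against the reference it differed by 0.33 in limb i4i5ZRSreg against ZRSreg. For the ZRS window the change was -0.84 in limb i4i5ZRSreg against ZRSreg. Past the fold were 3 partner bins in wild type midbrain (higher). With limb ZRSreg as the reference, its difference to the reference was 0.15 in limb i4i5ZRS, 0.18 in limb i4i5 and 0.29 in limb i4i5ZRSreg. With the Lmbr1 promoter deletion as the reference, its difference to the reference was -0.0094 in limb i4i5ZRS (sign turned), 0.022 in limb i4i5 and 0.12 in limb i4i5ZRSreg. With the first 3 bins of the ZRS window, the ZRS window change was -0.68 in limb i4i5ZRSreg. At a fold of 2, 0 partner bins were left in each of the comparisons that had any at 1.5-fold. Without smoothing, the partner bins past the fold numbered 2 in the Lmbr1 promoter deletion (higher), 1 in the Lmbr1 promoter deletion (lower), 6 in limb i4i5ZRS against i4i5 (lower), 4 in limb i4i5 (higher), 1 in limb i4i5ZRSreg (higher), 2 in limb i4i5ZRSreg against i4i5 (lower), 1 in limb i4i5ZRSreg against ZRSreg (higher), 2 in midbrain i4i5ZRS (higher), 5 in wild type midbrain (higher) and 2 in wild type midbrain (lower). With smoothing over 5 bins, the partner bins past the fold numbered 0 in limb i4i5ZRS against i4i5 (lower), 0 in limb i4i5 (higher) and 0 in wild type midbrain (higher).

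Depth limits the far bins most, since the poorest partner bin of a map held 19 to 42 contacts, and limb i4i5 is the shallowest map. Counting intervals leave out the spread between embryos, capture and library preparation. Limb strain and genotype cannot be told apart for the deletions against wild type limb.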

Other observations

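Above the Shh domain the highest bin of the smoothed Rbm33 profile stood at 2.98 in ES cells (29770001 to 29780000) and between 2.26 and 2.49 in the other 8 maps. It lay between 1020 and 1030 kb from the viewpoint in 6 maps and at 1180 kb in limb i4i5ZRS. In wild type midbrain and the Lmbr1 promoter deletion it was the first bin past the domain, at 960 kb, and no separate maximum is read from it there. In the 4 maps without i4 and i5, and in ES cells, this bin was higher than the highest bin inside the domain (2.38 against 1.79 in limb i4i5, 2.98 against 2.89 in ES cells). In the 4 remaining maps the domain bin was the higher one, as in wild type limb with 2.47 above the domain and 3.12 inside it.

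Over the 3 Rbm33 bins nearest to Shh, with all separations included, the log2 side ratio was below 0 in each of the 9 maps. It went from -0.52 in wild type limb to -0.04 in midbrain i4i5ZRS and -0.03 in ES cells, given without intervals. Of these 3 bins, 28720001 to 28730000 was above 0 in ES cells (0.25, 0.17 to 0.33), midbrain i4i5ZRS (0.24, 0.16 to 0.32) and limb i4i5ZRSreg (0.09, 0.02 to 0.16). Over the first 8 bins it was below 0 in wild type limb (-0.04) and limb ZRSreg (-0.0077) and above 0 in the other 7, up to 0.59 in ES cells. Counted singly, 3 of the 11 bins were above 0 in wild type limb and limb ZRSreg, and 9 of 11 in ES cells, midbrain i4i5ZRS and limb i4i5ZRSreg. These levels describe single merged maps and were not tested.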
